A study of Mus musculus with 6 samples.

Results

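The genes described are the interleukins and the chains of their receptors, taken as every probe set that the platform annotation maps to a single gene symbol starting with Il and a digit. Of 45101 probe sets on the array, 115 met this rule, and they stand for 73 genes. By role, 32 of these encode ligands, 33 encode receptor chains and 6 encode soluble inhibitors or decoy receptors. The other 2 are Il4i1, an amino acid oxidase named for its induction by interleukin 4, and Il1bos, an antisense transcript of Il1b. They were measured in whole spleens of Balb/c mice labelled as female and 6 to 8 weeks old. The 3 control mice were untreated. The other 3 mice were given PFOS (perfluorooctane sulfonate, a fluorinated surfactant that persists in the body) intragastrically for 3 weeks, at a daily dose of 10 mg per kg of body weight. Each spleen was hybridized to 1 Affymetrix Mouse430_2 array, a 3' expression array that reads each transcript with a set of short probes, and the study asked which spleen transcripts differ after exposure.

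Values are RMA values on a log2 scale, so that a difference of 1 is a 2-fold difference. RMA equalizes the arrays, so each change is relative to the rest of its array and not an amount per cell. In a whole spleen, fewer cells of a type and less RNA per cell cannot be told apart. Although the titles name the samples as biological replicates, nothing else is said of their origin, so p-values cover the spread between these arrays, which may be partly technical. Replicate arrays correlated at 0.999 over the 13101 genes tested and arrays of different groups at 0.969 to 0.970. The labelled sex went against the arrays: Xist, the transcript of the silenced X chromosome, lay between 5.62 and 5.86 on the 6 arrays, and the Y-linked gene Eif2s3y lay between 9.62 and 9.91. Both groups carried this mismatch alike. Lists of cell type markers give the makeup of the spleens beside the interleukin results. Of 11 T cell markers tested, 10 were higher and 0 lower in PFOS (median change 0.41). The same counts, 10 and 0 of 11, held for B cell markers (median 0.48), and red pulp macrophage and monocyte markers were higher in 11 of 12 cases (median 0.31). Natural killer cell markers were higher in 4 and lower in 2 of 9 cases (median 0.06). Neutrophil markers were lower in 6 and higher in 2 of 10 cases (median -0.35), and all 9 red cell precursor markers (median -1.59) were lower. All 11 liver cell markers tested were lower too, with a mean level of 8.75 to 8.78 in control and 5.10 to 5.22 in PFOS. The part of these marker movements in the interleukin results was not tested, beyond the differences within arrays given below.

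Interleukins are small secreted proteins through which immune cells instruct each other. Most bind receptors built from 2 or more chains, a private chain that recognizes the ligand and a chain shared by several ligands, such as gp130 (Il6st) or Il2rb. Receptors of the haematopoietin class signal through JAK kinases and STAT transcription factors, and receptors of the IL-1 class signal through the adaptor MyD88 and IRAK kinases. Decoy receptors and binding proteins take up ligand without signalling. In spleen, resting lymphocytes and macrophages carry many receptor chains, whereas many ligands are made in quantity only after activation.

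Promoter sequences are shown for 4 genes on which the results turn: Il7r and Il16, with the largest rises among members that have an entry in the sequence table, and the neighbouring genes Il1r1 and Il1r2, which moved in opposite directions. Each is the run of 250 bases before the annotated start, 5′ to 3′, from RefSeq on GRCm38.p6. The Il7r stretch is chr15:9529877-9530126 on the minus strand, that of Il16 is chr7:83732399-83732648 on the minus strand, and those of Il1r1 and Il1r2 are chr1:40224830-40225079 and chr1:40085843-40086092 on the plus strand. Where a gene had several annotated starts, the stretch with the most motif matches is shown, and the earliest listed on ties. Capitals mark matches on either strand to TTCNNNGAA, the core of a STAT site or to AGGAAG, a core bound by ETS factors.
Il7r: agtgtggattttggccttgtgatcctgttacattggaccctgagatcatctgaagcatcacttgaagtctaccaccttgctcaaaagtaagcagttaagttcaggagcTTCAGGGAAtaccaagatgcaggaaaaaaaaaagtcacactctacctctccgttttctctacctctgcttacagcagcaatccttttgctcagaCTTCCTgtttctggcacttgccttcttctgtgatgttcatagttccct
Il16: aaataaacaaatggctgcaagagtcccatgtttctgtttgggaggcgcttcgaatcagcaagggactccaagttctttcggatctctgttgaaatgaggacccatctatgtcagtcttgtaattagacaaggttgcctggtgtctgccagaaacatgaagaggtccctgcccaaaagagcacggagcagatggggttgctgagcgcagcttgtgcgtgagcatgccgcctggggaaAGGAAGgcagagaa
Il1r1: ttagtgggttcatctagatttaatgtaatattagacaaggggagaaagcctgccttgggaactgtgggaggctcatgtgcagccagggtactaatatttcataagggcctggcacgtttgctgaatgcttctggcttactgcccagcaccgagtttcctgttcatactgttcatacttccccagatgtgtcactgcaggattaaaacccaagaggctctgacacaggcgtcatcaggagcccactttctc
Il1r2: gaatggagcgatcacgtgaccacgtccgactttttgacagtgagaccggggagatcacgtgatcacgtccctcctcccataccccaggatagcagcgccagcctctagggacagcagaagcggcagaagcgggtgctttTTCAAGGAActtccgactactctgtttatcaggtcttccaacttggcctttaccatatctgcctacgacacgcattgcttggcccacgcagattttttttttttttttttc
In Il7r, the STAT core lay 142 to 134 bases before the start and the ETS core 48 to 43 bases before it, on the opposite strand. In Il1r2 the STAT core lay 111 to 103 bases before the start. The shown Il16 stretch held an ETS core 14 to 9 bases before the start, and that of Il1r1 held neither motif. Of the 73 genes, 57 had a promoter entry. The STAT core was in 2 of 24 promoters, of 19 genes, called higher in PFOS (8.33%), those of Il7r and Il1r2, and in 7.02% of all 32851 promoters of that length. It was also in 2 of 6 promoters of members called lower (33.3%), those of Il1f5 and Il1f9, and in 2 of 18 of members tested and not called (11.1%). The ETS core was in 8 of those 24 (33.3%) and in 29.5% of all promoters, and in 9 of 18 promoters (50%) of members tested and not called. These are counts of letters in a short window and no measure of binding.

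Receptor chains stood above the background of the array more often than ligands did. No detection calls were used here, so the background was gauged in 2 ways. The filter floor was the 40th percentile of probe set means, a log2 value of 5.62. As a reference for unspecific signal, 87 probe sets of olfactory, vomeronasal and taste receptor genes, genes typical of sensory tissue, had a median of 4.34 and a 95th percentile of 6.67, and 16 of them (18.4%) passed the floor. With the brightest probe set of each gene, 24 of 33 receptor chains (72.7%), 17 of 32 ligands (53.1%) and all 6 inhibitors passed the floor. Of all 18193 genes with a single symbol, 13101 passed the floor, a share near that of the receptor chains. Above the 95th percentile of the reference stood 16 receptor chains, 6 ligands and 2 inhibitors. So did 10100 of all genes, a larger share than in any of these roles. A gene with several probe sets has more chances to pass, and this was not adjusted for. Probe sets differ in affinity, so a probe set near background may miss a transcript that is present, and only the side of each line was compared.

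**Figure D1:**
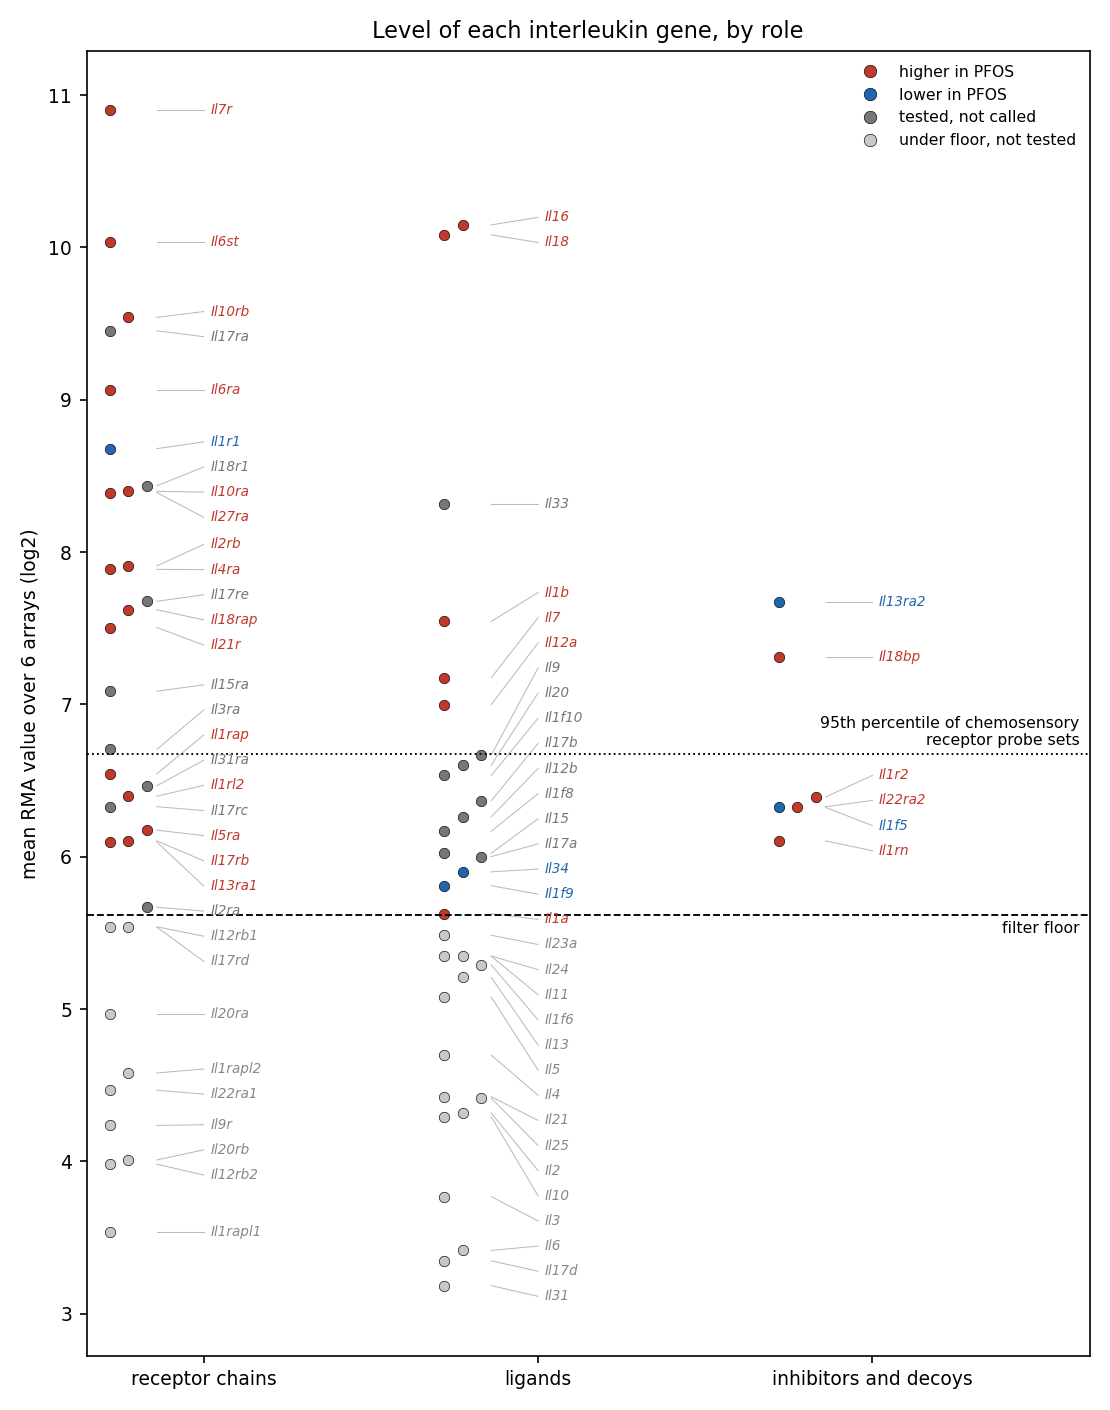
Mean RMA value over the 6 arrays (log2, vertical axis) of the brightest probe set of each of 71 interleukin genes, in columns by role, with the filter floor (dashed, 5.62) and the 95th percentile of chemosensory receptor probe sets (dotted, 6.67). Points are coloured by the limma call; 16 receptor chains but 6 ligands lie above the dotted line.

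The 6 ligands above the reference were Il16, Il18, Il33, Il1b, Il7 and Il12a. The other 11 tested ligands lay between the floor and 6.67, namely Il1a, Il12b, Il15, Il17a, Il17b, Il20, Il9, Il34 and the IL-1 family members Il1f8, Il1f9 and Il1f10. The 15 ligands under the floor included the T helper cytokines Il2, Il4, Il5, Il13 and Il21, the haematopoietic growth factor Il3, the inflammatory cytokine Il6 and the suppressive cytokine Il10. Il2, the T cell growth factor, lay between 4.20 and 4.48 on the 6 arrays, and Il6 between 3.32 and 3.58, which is within the range of the reference probe sets (2.90 to 7.41). Receptor chains under the floor were 9, among them Il12rb1, Il12rb2, Il9r and Il22ra1.

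Of the 47 members tested, 25 (53.2%) were called higher in PFOS and 5 (10.6%) lower, where 40.6% and 26.0% of all 13101 genes were called higher and lower (66.6% either way). Calls rest on limma with Benjamini-Hochberg adjustment over all genes tested, at an adjusted p under 0.05. A rise of at least 0.4 was called for 5 members (5.01% of all genes) and a fall of that size for 0 (8.65% of all genes). No member changed 2-fold, which 2.98% of all genes did. Changes ran from -0.33 to 0.68 on the log2 scale. The median change of the 47 was 0.16, beside 0.05 for all genes tested. All 25 called rises had every PFOS array above every control array, as had 43.2% of all genes, and the 5 called falls and Il1f10 had every PFOS array below every control array, as had 27.8% of all genes. A single tested member, Il1a, had a group mean under the floor. Over all 73 genes without the filter the median was 0.08, beside 0.05 for all genes, and 33 were called higher and 6 lower, where 34.6% and 21.1% of all genes were.

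**Figure D2:**
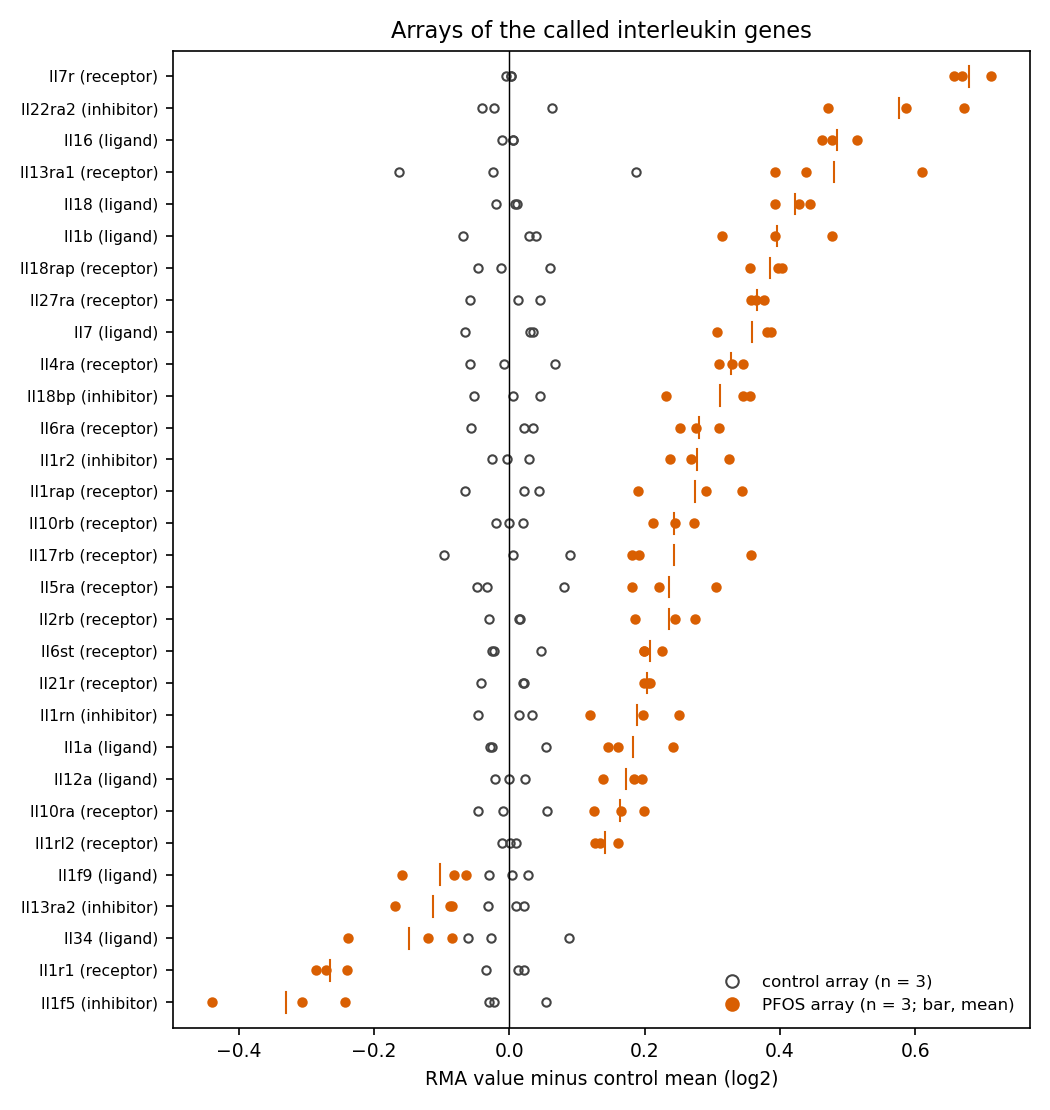
RMA value of each array minus the control mean (log2, horizontal axis) for the 30 called interleukin genes, ordered by change; open points are the 3 control arrays, filled points the 3 PFOS arrays and bars the PFOS mean. In all 30 genes the PFOS arrays lie to 1 side of the control arrays, from -0.33 (Il1f5) to 0.68 (Il7r) on average.

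The calls differed by role. Of 24 tested receptor chains, 15 were higher (62.5%), 1 was lower (4.17%) and 8 were not called, with a median change of 0.21. Of 17 tested ligands, 6 were higher (35.3%), 2 lower (11.8%) and 9 not called, with a median of 0.07. The ligand median moved with single arrays, to 0.04 without control replicate 2 or PFOS replicate 2 and to 0.12 without control replicate 3. Of the 6 inhibitors, 4 were higher and 2 lower (median 0.23). Calls also differed by level: of the 24 members above the reference line, 16 were higher and 2 lower, and of the 23 between floor and line, 9 were higher and 3 lower. Of all 10100 genes tested above that line, 43.2% were called higher and 28.7% lower, beside 40.6% and 26.0% of all genes tested. Among all genes, then, calls in both directions were more frequent above the line than below it. The 6 ligands above the line had a median change of 0.38 with 5 higher. The 11 tested below it had a median of 0.03 with 1 higher and 2 lower. The 16 receptor chains above the line had a median of 0.21 with 10 higher and 1 lower. The 8 tested below it had a median of 0.19 with 5 higher. Above the line, then, the receptor median was under the ligand median. The difference between roles was not tested, since members are not replicates.

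Among receptor chains of the common gamma chain family, Il7r had the largest change of all 47 members. Il7r encodes the receptor that keeps naive and memory T cells alive. It read 10.56, 10.56 and 10.57 in the control spleens and 11.27, 11.23 and 11.22 in the PFOS spleens. All PFOS arrays lay well above all control arrays, a rise of 0.68 ± 0.02 (SE, 1.60-fold; limma adjusted p = 4.6e-07). The other Il7r probe set rose by 0.67 ± 0.04. The mean level of the T cell markers went from 8.78 to 8.81 in control to 9.19 to 9.20 in PFOS. Single markers changed by -0.06 (Zap70) to 0.72 (Bcl11b), and Cd3d rose by 0.68, the size of the Il7r rise. A difference from their mean therefore depends on which markers are averaged. Within an array, Il7r less the mean of the 11 T cell markers shifted by 0.28, from a range of -0.01 to 0.01 around the control mean to 0.26 to 0.31 in PFOS (exact permutation p = 0.1, two-sided, the smallest that 3 arrays against 3 allow). Its ligand Il7, a stromal survival factor, went from 6.93, 7.03 and 7.03 to 7.38, 7.38 and 7.30. That rise of 0.36 ± 0.04 (limma adjusted p = 0.000113) rests on 1 probe set, since the other, under the floor, differed by -0.06.

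The remaining chains of this family above the floor rose less or were not called, and Il9r was under the floor. The common gamma chain itself, Il2rg, was not among the 73 genes. Il4ra, the chain that binds interleukin 4, read 7.66, 7.71 and 7.79 in control and 8.05, 8.03 and 8.07 in PFOS, a rise of 0.33 ± 0.04. Both other Il4ra probe sets above the floor differed by 0.02 and 0.07 and were not called. Less the mean of the 11 B cell markers, which changed by 0.04 (Pax5) to 0.62 (Cd79a), Il4ra shifted by -0.11 (exact permutation p = 0.1). Il2rb, the chain shared by the receptors of interleukins 2 and 15, rose by 0.24 ± 0.03. Less the T cell marker mean, it shifted by -0.16 (exact permutation p = 0.1). It was not compared with the natural killer cell markers, which were higher in 4 and lower in 2 of 9 cases (median 0.06). Il21r rose by 0.20 ± 0.03, with PFOS arrays at 7.60 to 7.61 and control arrays at 7.36 to 7.42. The private chains Il2ra and Il15ra were not called, at -0.02 ± 0.05 and -0.0048 ± 0.02, and their groups overlapped. A dimmer Il2ra probe set, under the floor, read 0.36 higher in PFOS. Il15 differed by 0.08 ± 0.05 (limma adjusted p = 0.219), and Il9 by 0.03 ± 0.03.

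Of the chains for interleukins 4 and 13, Il13ra1 rose and Il13ra2 fell. Il13ra1 pairs with Il4ra to signal, and Il13ra2 binds interleukin 13 chiefly as a decoy. Il13ra1 read 6.04, 5.83 and 5.69 in control and 6.47, 6.25 and 6.29 in PFOS. The control arrays were widely spread, yet none reached a PFOS array, and the rise was 0.48 ± 0.09 (limma adjusted p = 0.00271). The 4 probe sets of Il13ra1 above the floor rose by 0.13 to 0.48, and the means of all 4 lay below the reference line (6.67). Il13ra2 read 7.74, 7.75 and 7.70 in control and 7.65, 7.56 and 7.64 in PFOS, a fall of 0.11 on the log2 scale (SE 0.03; limma adjusted p = 0.0154). Without control replicate 2 that fall lost its call (-0.10, limma adjusted p = 0.0528). The ligands Il4 and Il13 were under the floor, where Il4 read 4.48 to 4.57 in control and 4.75 to 4.98 in PFOS, and Il13 read 5.22 to 5.36 and 5.12 to 5.19.

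The IL-1 system moved in both directions. Il1b, the inflammatory cytokine released through caspase 1, read 7.39, 7.28 and 7.38 in control and 7.83, 7.74 and 7.66 in PFOS, a rise of 0.40 ± 0.05 (limma adjusted p = 0.000254). The 12 macrophage and monocyte markers changed by 0.02 (Adgre1) to 0.68 (Vcam1). Il1b less their mean shifted by 0.09, with overlapping groups (exact permutation p = 0.3). The ligand Il1a rose by 0.18 ± 0.04, from 5.59, 5.51 and 5.51 to 5.78, 5.70 and 5.68. Its control arrays lay under the floor, and without any 1 of the PFOS arrays its mean fell under the floor and it was not tested. The signalling receptor Il1r1 read 8.83, 8.78 and 8.83 in control and 8.53, 8.54 and 8.57 in PFOS. It was the receptor chain called lower, by 0.27 on the log2 scale (SE 0.03, 1.20-fold; limma adjusted p = 9.73e-05). Its partner chain Il1rap rose by 0.27 ± 0.05 at its only probe set above the floor, which lay below the reference line. The Il1rap probe sets under the floor differed by -0.33 to 0.10.

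Both natural brakes of this system rose, though both lay between the floor (5.62) and the reference line (6.67), whereas Il1r1 lay above that line. The decoy receptor Il1r2, which binds interleukin 1 and does not signal, went from 6.28, 6.23 and 6.25 to 6.52, 6.49 and 6.58, a rise of 0.28 ± 0.03 (limma adjusted p = 0.000156). The receptor antagonist Il1rn rose by 0.19 ± 0.04. Il1r2 and Il1r1 are neighbouring genes, and within an array their difference shifted by 0.54, from a range of -0.03 to 0.02 around the control mean to 0.51 to 0.56 in PFOS (exact permutation p = 0.1). A shift of a whole array on the log2 scale cancels in this difference. The groups of neither gene overlapped and the genes moved apart, so the permutation result was fixed in advance and adds nothing to their calls. Il1r1 is carried by stromal cells among others. The stromal cell markers were higher in 5 and lower in 3 of 9 cases (median 0.09), and their mean level changed by -0.09. Single stromal markers ran from -1.06 (Col1a1) to 0.53 (Cxcl13), and the 3 lower were the collagens Col1a1, Col1a2 and Col3a1. Il1r2 is carried by neutrophils. Their marker list went from a mean level of 8.40 to 8.44 in control to 8.00 to 8.03 in PFOS, with Mmp8 under the floor. Single neutrophil markers ran from -0.96 (Ltf) to 0.19 (Csf3r). Of 10 tested, 6 were lower, Csf3r and Elane were higher, and Cxcr2 and Mmp9 were not called. The part of these cells in either result was not tested.

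**Figure D3:**
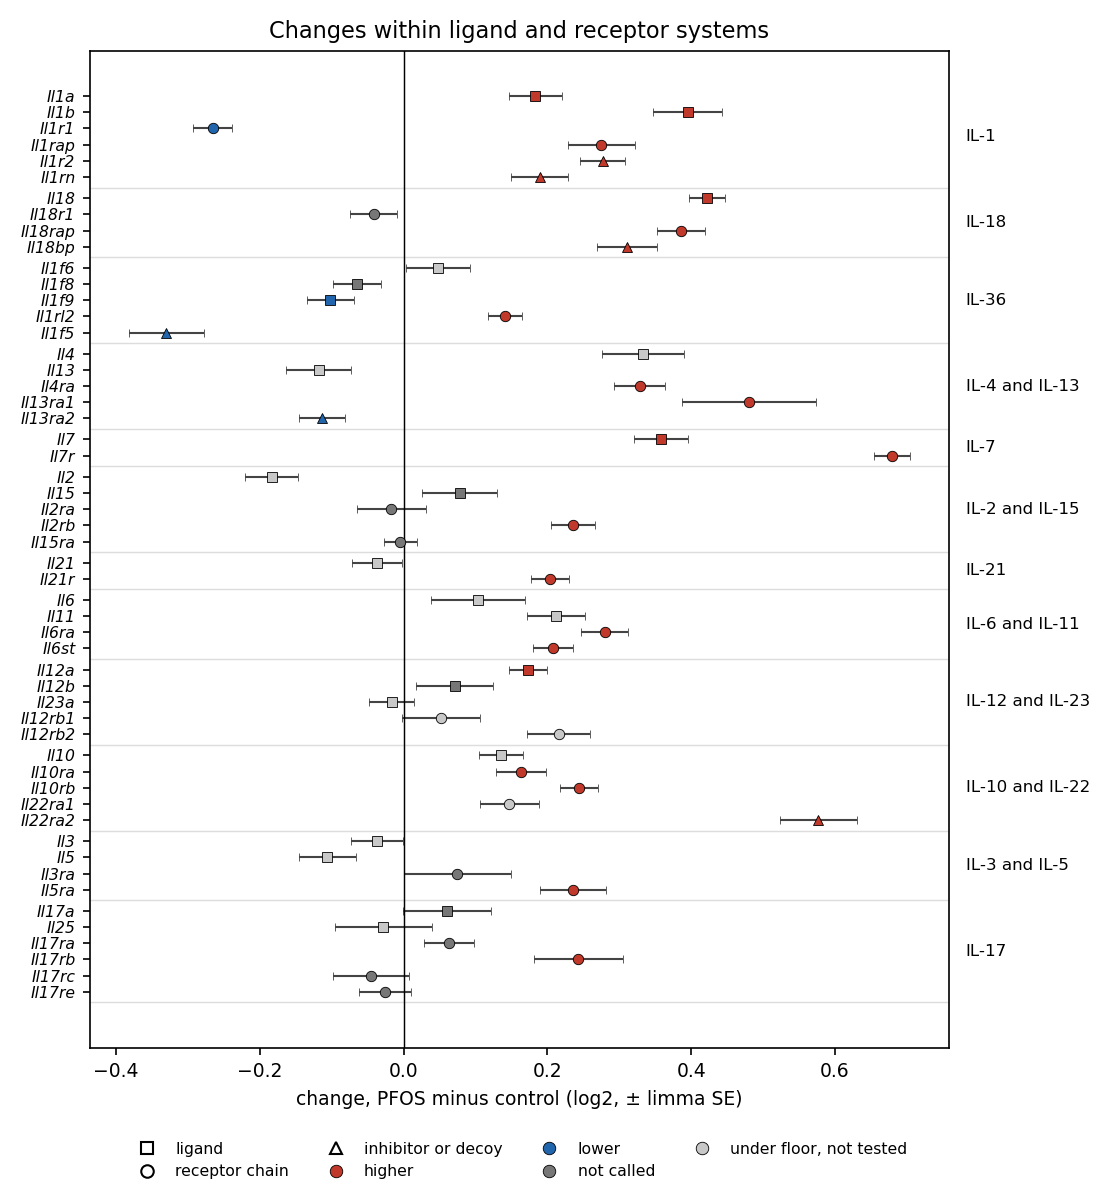
Change of each gene, PFOS minus control (log2, horizontal axis, bars ± limma SE), for 12 ligand and receptor systems; squares are ligands, circles receptor chains and triangles inhibitors or decoys, coloured by the limma call. Within the IL-1 system Il1r1 lies at -0.27, while the decoy Il1r2 lies at 0.28; Il7r lies farthest right at 0.68.

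Il18, a relative of interleukin 1 that drives interferon gamma production, rose together with its binding protein. Il18 read 9.85, 9.88 and 9.88 in control and 10.26, 10.32 and 10.30 in PFOS, a rise of 0.42 ± 0.03 (1.34-fold; limma adjusted p = 6.27e-06). Less the macrophage and monocyte marker mean it shifted by 0.11 (exact permutation p = 0.1). The binding protein Il18bp, which neutralizes it, rose by 0.31 ± 0.04. Of its receptor chains, Il18rap rose by 0.39 ± 0.03 at its brighter probe set and by 0.00 ± 0.04 at the dimmer, which was not called. Il18r1 read 8.45 to 8.46 in control and 8.36 to 8.48 in PFOS and was not called (-0.04 ± 0.03). The within-array difference of Il18rap and Il18r1, also neighbouring genes, shifted by 0.43 (exact permutation p = 0.1). Il33, an alarm signal of stromal cells, was bright and not called, at 8.36, 8.33 and 8.32 in control and 8.31, 8.27 and 8.33 in PFOS (-0.03 ± 0.03).

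The members of the IL-36 branch of this family all lay below the reference line. The ligand Il1f9, or interleukin 36 gamma, read 5.83, 5.89 and 5.86 in control and 5.80, 5.78 and 5.70 in PFOS, a fall of 0.10 on the log2 scale (limma adjusted p = 0.0267). Leaving out control replicate 2, control replicate 3 or PFOS replicate 3 ended the call, at adjusted p-values of 0.0857, 0.0689 and 0.0815. Il1f8, or interleukin 36 beta, and the related Il1f10, or interleukin 38, differed by -0.06 and -0.11 and were not called. Il1rl2, the receptor chain for interleukin 36, rose by 0.14 ± 0.02. Il1f5, the antagonist of that receptor, was called lower at its brighter probe set (6.54, 6.46 and 6.47 against 6.18, 6.25 and 6.05; -0.33 ± 0.05). Its other probe set, nearly as bright, was called higher (0.19 ± 0.06, limma adjusted p = 0.0277 over probe sets), so the gene has no settled direction. The brighter of the pair changed without control replicate 2, and Il1f5 then differed by 0.13 (adjusted p = 0.0671).

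Of the receptor chains of the gp130 and IL-12 group above the floor, Il6ra, Il6st and Il27ra rose and Il31ra was not called (0.05 ± 0.07, limma adjusted p = 0.506). Il6ra, the binding chain for interleukin 6, read 8.95, 8.87 and 8.96 in control and 9.24, 9.18 and 9.20 in PFOS (0.28 ± 0.03). Il6st, the shared signalling chain gp130, rose by 0.21 ± 0.03 and by 0.26 ± 0.03 at its 2 bright probe sets, while a dimmer probe set was called lower (-0.11 ± 0.03). Il27ra, the receptor for interleukin 27, carried by T cells, read 8.15, 8.22 and 8.25 in control and 8.56, 8.57 and 8.58 in PFOS, a rise of 0.37 ± 0.03 (limma adjusted p = 4.12e-05). The interleukin 12 subunit Il12a rose by 0.17 ± 0.03, from 6.91, 6.89 and 6.94 to 7.11, 7.10 and 7.05. Il12b, its partner, was not called (0.07 ± 0.05), and both interleukin 12 receptor chains were under the floor.

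In the IL-10 family, the decoy Il22ra2 had the largest rise, and among all 47 members tested the second largest after Il7r. This soluble binding protein takes up interleukin 22. Il22ra2 read 6.02, 6.00 and 6.10 in control and 6.51, 6.63 and 6.71 in PFOS, a rise of 0.58 ± 0.05 (1.49-fold; limma adjusted p = 6.02e-05) that began near the background reference. The chains of the interleukin 10 receptor, Il10ra and Il10rb, rose by 0.16 ± 0.03 and 0.24 ± 0.03, although a dimmer Il10rb probe set differed by -0.03 and was not called. Il20, a skin cytokine, was not called (0.10 ± 0.05). Il10 itself was under the floor, at 4.19 to 4.27 in control and 4.36 to 4.37 in PFOS.

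Of 6 members of the IL-17 family tested, 1 was called higher and 5 were not called. Il17ra, the common receptor chain, was bright and not called, at 9.37 to 9.45 in control and 9.43 to 9.53 in PFOS (0.06 ± 0.03, limma adjusted p = 0.146). Il17rc and Il17re were not called either. Il17rb, the chain for interleukin 25, rose by 0.24 ± 0.06. The ligands Il17a and Il17b differed by 0.06 and -0.02 and were not called. In the family of interleukins 3 and 5, Il5ra rose by 0.24 ± 0.05, Il3ra was not called (0.07 ± 0.07), and both ligands were under the floor.

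Of the ligands outside these families, Il16, which lymphocytes release from a precursor and which binds CD4, had the largest rise of any ligand. Il16 read 9.91, 9.91 and 9.90 in control and 10.38, 10.37 and 10.42 in PFOS, a rise of 0.48 ± 0.02 (1.40-fold; limma adjusted p = 2.57e-06). Its 4 probe sets rose by 0.21, 0.28 and 0.48 in 3 cases and by 0.11 in the case that was not called. Il34, a ligand of the macrophage growth factor receptor, read 6.06, 5.91 and 5.95 in control and 5.85, 5.74 and 5.89 in PFOS (-0.15 ± 0.05, limma adjusted p = 0.0397). That call ended when control replicate 1, control replicate 3, PFOS replicate 1 or PFOS replicate 2 was left out, at adjusted p-values of 0.111, 0.0632, 0.0595 and 0.114.

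Probe sets of the same gene did not always move together. Of the 65 member probe sets above the floor, 34 were called higher and 6 lower, where 36.4% and 27.4% of all probe sets tested were. Of the 12 genes with several probe sets above the floor, Il7r and Il13ra1 had every probe set called higher, and Il17ra had none called. In Il6st and Il1f5, probe sets were called in opposite directions. In the other 7 genes (Il16, Il18rap, Il4ra, Il6ra, Il10rb, Il2rb and Il17re) some probe sets were called higher and the rest not called. For these genes the calls given above hold for the brightest probe set.

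**Figure D4:**
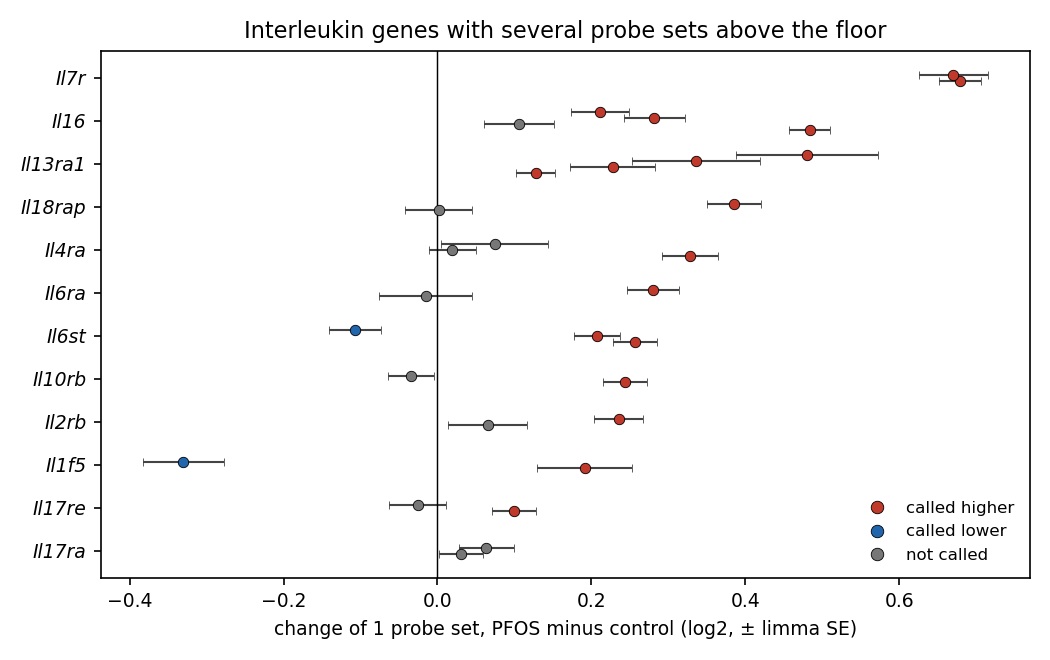
Change of each probe set above the floor, PFOS minus control (log2, horizontal axis, bars ± limma SE), for the 12 interleukin genes with several, coloured by the limma call over all probe sets. Both Il7r probe sets lie near 0.67, while those of Il1f5 lie at -0.33 and 0.19.

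Molecules that carry or regulate interleukin signals were listed as signalling partners. Of 37 tested, 25 were higher, 4 lower and 8 not called, where 40.6% of all genes were called higher and 26.0% lower, and their median was 0.18 beside 0.05 for all genes. The largest rise was that of Socs3, the feedback inhibitor of gp130 signalling, from 8.08, 8.01 and 8.04 to 8.66, 8.50 and 8.51 (0.51 ± 0.05, limma adjusted p = 4.63e-05). Sigirr, a receptor that dampens IL-1 and IL-18 signals, rose by 0.47 ± 0.03. Casp1, the protease that matures interleukins 1 beta and 18, rose by 0.47 ± 0.03, and Traf3ip2, the adaptor of IL-17 receptors, by 0.43 ± 0.03. The called falls were small: the IL-1 receptor kinase Irak2 by 0.15 on the log2 scale, the interleukin 4 receptor substrate Irs2 by 0.14, the STAT5 feedback inhibitor Cish by 0.10 and the kinase adaptor Tab1 by 0.10. The call of Cish ended without control replicate 2 or 3 or without PFOS replicate 1 or 2, with adjusted p-values between 0.0575 and 0.104.

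The direction of the smaller changes depends on how the arrays are scaled. Scaling on ribosomal protein genes moved the share of all calls that were higher from 61.0% to 43.6%. Of the 30 called members, 29 then kept their call and direction, and Il10ra lost it (0.09, adjusted p = 0.0503). Calls were added for 5 members, all lower: Il15ra (-0.08), Il18r1 (-0.11), Il1f10 (-0.18), Il1f8 (-0.14) and Il33 (-0.10). The members called were then 24 higher and 10 lower, beside 25 and 5 on the deposited scale. Scaling on the bacterial transcripts added before labelling, which read lower in PFOS, moved the median of all genes from 0.05 to 0.59 and the share of higher calls to 94.3%. All 47 members were then called higher, so the falls of Il1r1, Il13ra2, Il1f5, Il1f9 and Il34 turned. Such scaling moves every gene of an array by the same amount, so their place below the median of all genes could not change. Changes given here are relative to the deposited RMA scale.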

How the data were processed

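The authors deposited RMA values on a log2 scale, 1 value per probe set and array, per the submitters' processing notes. The RMA version was not given in the sources used here. Total RNA (6 ug) was extracted with Trizol and made into biotin-labelled cRNA, per the labels' protocols. The sample groups and replicate numbers come from the sample titles.

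Symbols come from the platform annotation. Of 115 member probe sets, 115 matched the GRCm38.p6 gene table, and 0 symbols changed. Control probe sets, probe sets without a single symbol and those with a mean under the 40th percentile were left out, and the brightest probe set stood for its gene. The contrast of PFOS minus control was fitted by lmFit, then eBayes (limma 3.58.1 under R 4.3.3). Its two-sided p-values were Benjamini-Hochberg adjusted over 13101 genes, and errors are limma's SE. The procedure was also run on simulated data with independent noise and few changed genes. That setting differs from these arrays, so it does not show the error rate here. Of 9 within-array differences, chosen after values were seen and tested by exact permutation, the Benjamini-Hochberg adjusted p was 0.112 for 8 and 0.3 for Il1b. For Il1r2 less Il1r1 and Il13ra1 less Il13ra2, genes that moved apart without overlap, the permutation result was fixed in advance. The number of arrays, 3 per group, limits the precision.

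Named members were those called with a change of at least 0.4, the 5 largest rises and falls, and every ligand above the floor; named partners were the 4 largest rises and falls. Other genes in the text were named outside this rule, after their values were seen. The members, lists, markers and tests were chosen with earlier results of these data known. The replicate numbers were not used as pairs: deviations from group means correlated at 0.32, 0.14 and 0.10 between arrays of the same number, and at -0.23 to 0.13 between others. Alternatives covered the replicate block, filter, scaling, variance prior, array weights, choice of probe sets, threshold and leaving out each array.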

Additional observations from a re-analysis of the deposited data

How the results depend on the processing

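Of the 30 called interleukin genes, 25 kept their call and direction without any 1 array, with 28 to 29 called each time. Il13ra2, Il1f5, Il1f9 and Il34 lost it in the test and Il1a through the filter. Without control replicate 2 the brightest Il1f5 probe set was another, and its change, -0.37 to -0.28 without any other array, turned to 0.13. The median changed to 0.0385 to 0.119 for ligands, 0.189 to 0.217 for receptor chains and 0.206 to 0.252 for inhibitors over the same settings. With the replicate number as a replicate block, 31 were called; Il1f10 was added (-0.11, adjusted p = 0.0447) and Cish lost its call (adjusted p = 0.0577). The numbers are not shown to pair the mice, and control replicate 3 correlated better with PFOS replicate 2 than with its own number.

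Without the filter, 73 genes were tested and 39 called, and the medians were 0.041 for ligands and 0.163 for receptor chains. The 10 calls added there are of genes under the floor, and Il34 lost its call. With a filter at the 60th percentile, 23 genes and 18 calls remained, with 22 probe sets called, and the medians were 0.377 for ligands and 0.0987 for inhibitors, because fewer members were tested. Quantile normalization gave 0.229 for receptor chains, the mean over probe sets 0.136, and leaving out _s_at, _x_at and _a_at probe sets 0.189 for inhibitors. Leaving those out left 23 calls, and Il12a, Il17rb, Il18bp, Il1b, Il1rl2, Il34 and Il4ra were no longer tested. Over all alternatives but scaling on the labelling spikes, 12 of the 30 calls were kept. Of the rest, 6 were lost in a test, with the threshold of 0.01 among the settings, and 12 only where the gene was left untested. With the filter at the 60th percentile also set aside, 18 were kept, 6 were lost in a test and 6 only where the gene was left untested. Scaling on ribosomal protein genes gave medians of 0.000819, 0.136 and 0.163 for ligands, receptor chains and inhibitors.

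Scaling on the labelling spikes gave 0.605, 0.74 and 0.767, with 47 genes and 65 probe sets called higher. It turned Il13ra2 (0.42), Il15ra (0.53), Il17b (0.51), Il17rc (0.49), Il17re (0.51), Il18r1 (0.49), Il1f10 (0.43), Il1f5 (0.20), Il1f8 (0.47), Il1f9 (0.43), Il1r1 (0.27), Il2ra (0.52), Il33 (0.50), Il34 (0.39), Cish (0.43), Irak2 (0.39), Irs2 (0.40) and Tab1 (0.44). These changes all lie under the median of all genes there (0.59), which follows from the scaling, since it moves all changes by the same amount.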
